A study of Mus musculus with 16 samples.

Results

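The 8 genes Cd1d1, Cd9, Cd36, Plac8, Serpine2, Nebl, Dph5 and Ptpn22 were followed through the B cells of mouse spleen, out of 11713 genes counted. All 8 were found in the count table. They had been picked from an earlier comparison of these data, in which they were higher in marginal zone than in follicular B cells, so their difference between those populations is given as a description, with no test. What was not used to pick them is how they varied within each of those populations, in the remaining B cells, and in T, myeloid and plasma cells. A split within a mixed population can still repeat a part of that comparison.

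The cells came from spleens of female BALB/cJ mice aged 9 months and were profiled by CITE-seq, which counts messenger RNA together with antibodies that carry a DNA tag, droplet by droplet. The 16 samples form 4 groups of 4: RNA of Main1, RNA of Main2, antibody tags of Main1 and antibody tags of Main2. No genotype or treatment beyond the strain separates them, all were dissociated and stained in the same way per the labels, and whether the names Main1 and Main2 stand for different animals is not stated. Since the tables hold 1 column per droplet and do not separate the 4 samples of a group, each source was read as 1 library, and a p-value reflects no more than how these 2 libraries differed, which may be technical. Main1 held 3179 droplets with a median of 1789 RNA molecules (UMIs, unique molecular identifiers) each, and Main2 held 3918 with a median of 1778. The libraries shared 14 droplet barcodes.

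Marginal zone B cells line the border between the white and red pulp of the spleen and respond quickly to particles and lipids carried in blood. They carry much CD21/35, the complement receptor encoded by Cr2, much IgM and little IgD, whereas follicular B cells carry much IgD. They depend on Notch2 signalling, which acts on genes through the DNA-binding protein RBPJ. B-1 cells are a second innate-like B lineage, marked by CD5 on a part of its cells and by the transcription factor Bhlhe41. Among the 8 genes, Cd1d1 encodes the CD1d molecule that shows lipids to natural killer T cells, Cd9 a tetraspanin that organises membrane complexes, and Cd36 a scavenger receptor for fatty acids and lipoproteins. Plac8 encodes a small cysteine-rich protein, Serpine2 a secreted serine protease inhibitor, Nebl the actin-binding protein nebulette, Dph5 an enzyme of diphthamide synthesis on elongation factor 2, and Ptpn22 a phosphatase that dampens antigen receptor signalling.

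Populations were drawn from antibodies alone. The B gate, droplets positive for a B-lineage antigen and negative for CD3, held 5460 droplets, of which 95.3% fell in B-like RNA clusters. Within it the marginal zone gate (the top 25% of CD21/35 with IgD below the median) held 478 droplets, 149 in Main1 and 329 in Main2, and the follicular gate (IgD at or above the median, CD21/35 below that top 25%) held 1840. Levels are UMIs of a gene per 1000000 UMIs of a population (CPM) and carry no correction for gene length, so they are compared between populations and not between genes. Clusters were made from RNA with the 8 genes left out. One cluster of 683 droplets had 9 of 14 marginal zone genes, the list of Cr2, Hes1, Dtx1 and others, at no less than 2 times their level in the remaining B-like clusters, and it took in 71.1% of the marginal zone gate. Dph5 and Serpine2, which were left out of the clustering but had been chosen for this contrast, were among its 10 leading genes. A cluster of 286 droplets had 12 of 14 B-1 genes at that level, with Bhlhe41 and Zbtb32 among its 10 leading genes. Its median CD21/35 count was 45 against 246 in the marginal zone B-like cluster, and its median IgD count 115.5 against 348. The median CD5 count was 12 against 5. Its median IgM count, 35 against 103, was near the 31 of the B gate, so IgM did not mark it. The name B-1-like rests on RNA.

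In the marginal zone gate each of the 8 genes stood above the follicular gate in both libraries, which is the contrast that chose them. Of 6557 genes with 50 or more UMIs there, 19.9% were higher in both libraries. Serpine2 had the widest ratio, with 43.7 CPM in Main1 and 43.5 in Main2 in the marginal zone gate against 2.46 and 0.607 in the follicular gate. Nebl had 67.0 and 42.4 CPM against 4.92 and 1.21. Dph5 had 216 and 211 CPM against 30.1 and 31.5. For these 3 genes, as for the rest of the 8 given below, the follicular values did not overlap the marginal zone values. How many of all genes lacked overlap was not counted. Cd36 had 46.6 and 84.7 CPM against 7.99 and 8.49, with the widest ratio between libraries of the 8 within the marginal zone gate. Cd9 had 78.7 and 65.9 CPM against 10.4 and 9.10. Ptpn22 had 122 and 111 CPM against 20.9 and 17.0. Cd36 and Cd9 are surface proteins and Ptpn22 an intracellular phosphatase, and all 3 kept the same order in both libraries. Plac8, the most abundant in UMIs, had 1641 and 1643 CPM against 352 and 328. Cd1d1 had 61.2 and 56.5 CPM against 19.7 and 15.2, the smallest ratio of the set. The pooled ratios ran from 3.33 for Cd1d1 (95% interval 2.31 to 4.81) to 28.6 for Serpine2 (11.5 to 91.7), where the intervals cover counting error only.

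At single-droplet depth the genes were sparse. With each droplet thinned to 1000 UMIs, 9.41% of the marginal zone gate (45 of 478 droplets, exact 95% interval 6.95 to 12.4) held UMIs of 3 or more of the 8 genes, against 0.22% of the follicular gate (0.06 to 0.56). The libraries gave 11.4% and 8.51% in the marginal zone gate and 0.23% and 0.21% in the follicular gate. The intervals cover the sampling of droplets and not the spread between libraries. Since the genes were chosen between these populations, the difference is a description. By RNA cluster the share was 7.91% in marginal zone B-like, 2.1% in B-1-like and 0.18% in the other B-like droplets. No droplet was too shallow for the thinning. Before thinning, 9.37% of marginal zone B-like droplets held a Serpine2 UMI at a median depth of 2134 UMIs, against 0.115% of T-like droplets at a median depth of 2575, where only 1 UMI was found.

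**Figure D1:**
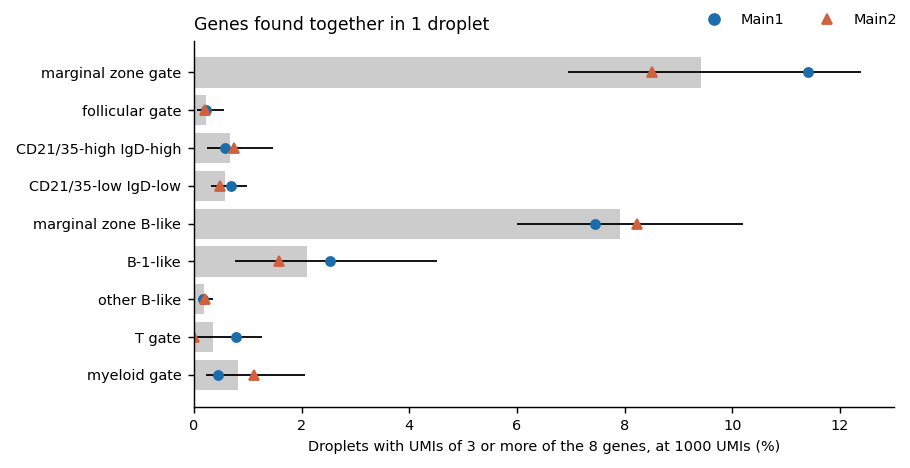
Share of droplets, thinned to 1000 UMIs, that hold UMIs of 3 or more of the 8 genes, in percent, by antibody gate and by RNA cluster. Grey bars pool both libraries, black lines are exact 95% binomial intervals, circles are Main1 and triangles Main2. The intervals cover the sampling of droplets and not the spread between libraries. The marginal zone gate reaches 9.41% and the follicular gate 0.22%, in the contrast that chose the genes.

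The genes lie on 5 chromosomes by GENCODE vM21, which annotates GRCm38 (mm10), and the coordinates are those of the whole gene, exons and introns. Cd1d1 lies at chr3:86995834-86999441 on the minus strand and Serpine2 at chr1:79794197-79861180, also minus. Cd9 (chr6:125460266-125494791), Cd36 (chr5:17781690-17888801), Plac8 (chr5:100553725-100572245) and Nebl (chr2:17343909-17731464) are on the minus strand too. Dph5 (chr3:115887837-115934361) and Ptpn22 (chr3:103859795-103912247) are on the plus strand. Cd9, Nebl, Dph5 and Ptpn22 overlap other annotated genes, among them the antisense genes Gm28809 in Cd9 and Gm13324 in Nebl. The sources used here do not give whether counting used strand, so reads of such overlaps could not be assigned. Cd1d2, a close paralogue of Cd1d1, had 28 UMIs in all droplets, of which 8 fell in the marginal zone gate and 1 in the follicular gate, and reads could be split between the paralogues.

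The promoters are shown because marginal zone B cells depend on Notch2, whose partner RBPJ binds a core of TGGGAA. RefSeq (GRCm38.p6) had promoter windows of 300 bases for 7 of the 8 genes, 12 windows in all. The core, searched on both strands, was found in 6 of the 12 (50%), in windows of 5 genes, against 25.6% of 32851 windows of that length. Below are the 250 bases before 1 start of each of 4 genes, with the core, or in Ptpn22 its reverse complement, in capitals: Cd36 (chr5:17835897-17836146, minus strand, core 43 bases before the start), Cd9 (chr6:125494761-125495010, minus strand, 211 bases before), Ptpn22 (chr3:103859545-103859794, plus strand, 153 bases before) and Serpine2 (chr1:79858666-79858915, minus strand, no core).
Cd36: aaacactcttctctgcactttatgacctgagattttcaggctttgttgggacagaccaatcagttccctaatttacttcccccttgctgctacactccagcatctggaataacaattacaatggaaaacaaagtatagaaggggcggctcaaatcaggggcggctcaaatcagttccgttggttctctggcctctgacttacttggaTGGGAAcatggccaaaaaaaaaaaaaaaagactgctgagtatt
Cd9: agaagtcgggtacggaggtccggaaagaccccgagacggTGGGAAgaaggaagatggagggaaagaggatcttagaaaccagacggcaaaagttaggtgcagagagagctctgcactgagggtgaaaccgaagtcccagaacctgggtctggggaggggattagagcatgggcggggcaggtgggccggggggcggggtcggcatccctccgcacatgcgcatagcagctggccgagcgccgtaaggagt
Ptpn22: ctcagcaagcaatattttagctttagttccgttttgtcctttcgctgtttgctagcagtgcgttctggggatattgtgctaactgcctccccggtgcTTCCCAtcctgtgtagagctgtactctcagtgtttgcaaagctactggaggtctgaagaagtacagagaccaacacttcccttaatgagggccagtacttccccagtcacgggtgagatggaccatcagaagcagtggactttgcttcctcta
Serpine2: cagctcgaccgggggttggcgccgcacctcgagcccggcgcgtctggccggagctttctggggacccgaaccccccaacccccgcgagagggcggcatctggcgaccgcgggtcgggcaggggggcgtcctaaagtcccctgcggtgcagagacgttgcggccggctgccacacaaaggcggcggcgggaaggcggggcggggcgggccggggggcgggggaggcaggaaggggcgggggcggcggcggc
Plac8 and Nebl had 2 and 4 windows, with the core in 1 of each (for Plac8 after the start), and Ptpn22 had it in both of its windows. The Dph5 window had none. A site of the B-lineage and myeloid factor PU.1, GAGGAAGT (3.2% of all windows), was in none of the 12 windows on either strand. A match of letters is a description and not a bound site.

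Graded by CD21/35, some genes stood higher in the highest class than in the lowest, while others were high at both ends. The B gate was divided per library into 5 classes of equal droplet number for each antibody, with medians of 36 CD21/35 counts in the lowest class and 275 in the highest. These gradings overlap the gates that chose the genes, so the values are a description. Nebl had 1.99 CPM in Main1 and 3.28 in Main2 in the lowest class and 16.9 and 20.04 in the highest, 6.92 times with libraries pooled. Cd36 went from 4.97 and 6.55 CPM to 25.3 and 49.5, and Dph5 from 33.8 and 36.8 to 94.9 and 126. Cd1d1 stood at 16.9 and 19.7 CPM in the lowest class and 35.1 and 41.7 in the highest. These 4 were lowest in the second class and highest in the top class when libraries were pooled, as were Serpine2 and Ptpn22.

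Plac8 and Ptpn22 were as high in the lowest CD21/35 class as in the highest. Plac8 had 1074 and 1001 CPM in the lowest class, 477 and 404 in the third and 965 and 1123 in the highest. Ptpn22 had 71.6 and 54.9 CPM in the lowest, 32.5 and 30.5 in the third and 67.5 and 62.3 in the highest. Cd9 had 19.9 CPM in the lowest class in Main1 but 58.1 in Main2, and 1 erythroid-like droplet of Main2, with 40 Cd9 UMIs, held 44.0% of its 91 UMIs in that class. Serpine2 had 3.98 and 13.1 CPM in the lowest class and 16.9 and 22.3 in the highest. Marginal zone B-like droplets numbered 5 of 1092 in the lowest CD21/35 class and 466 in the highest.

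By IgD, which had helped to choose the genes, the order was the reverse. All 8 genes stood lower in the highest IgD class than in the lowest in both libraries, by pooled ratios from 0.084 for Nebl to 0.665 for Cd1d1. How many of all genes did so was not counted, neither for IgD nor for the rise with IgM given below. Plac8 had 1483 and 1513 CPM in the lowest IgD class and 467 and 473 in the highest. Cd9 had 44.0 and 79.8 CPM against 8.16 and 14.5, with 23.3% of the 172 UMIs of the lowest class in the same erythroid-like droplet. By IgM all 8 were higher in the highest class than in the lowest in both libraries, most for Cd36 (1.15 and 5.395 CPM against 30.3 and 50.1) and least for Plac8 (917 and 726 against 1030 and 1124). Cd9 did not follow a line with IgM, since the third class held 60.8 CPM in Main2 against 14.9 in Main1 and 1 droplet gave 47.6% of the UMIs there.

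**Figure D2:**
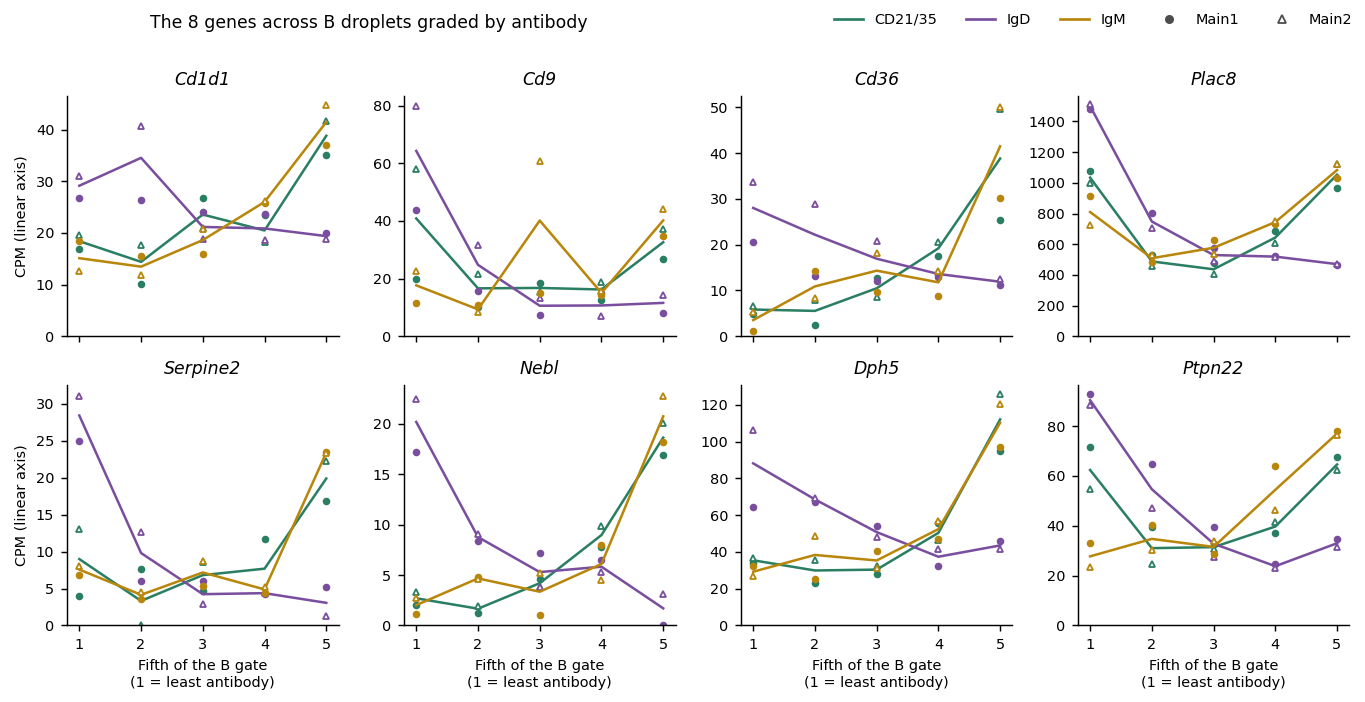
Level of each gene in CPM (linear axes) across 5 classes of B-gate droplets graded by CD21/35 (green), IgD (purple) or IgM (gold), from least to most antibody. Lines pool both libraries, filled circles are Main1 and open triangles Main2. Nebl, Cd36 and Dph5 are highest in the top class of CD21/35 and of IgM, whereas Plac8 and Ptpn22 are high at both ends of CD21/35, and all 8 are lower at the highest IgD than at the lowest.

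Each gate was then divided within itself, so that both sides lay in the same gate of the contrast that chose the genes. The marginal zone gate was mixed, with 340 droplets (71.13%) marginal zone B-like and 107 (22.38%) other B-like by RNA. A split within it can repeat a part of the contrast that chose the genes, which was not tested. Within the marginal zone gate, droplets of the upper IgM tertile were compared with those of the lower tertile, 160 against 160. Dph5 had 297 and 258 CPM in the upper tertile against 125 and 130 in the lower, Plac8 1911 and 2238 against 1560 and 938, and Ptpn22 148 and 129 against 80.2 and 76.6. None of the 3 overlapped between tertiles, which was not counted over all genes. Cd9 had 115 and 101 CPM against 53.5 and 34.5, and Cd36 had 49.4 and 111 against 8.91 and 57.4, so that Cd36 overlapped across libraries. These 5 genes had the 50 UMIs set as the minimum for testing, and all 5 were higher in both libraries, as were 26.3% of the 1837 genes tested.

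None of the 5 passed the edgeR quasi-likelihood test at a Benjamini-Hochberg adjusted p under 0.05, a threshold met by 11 of 1837 genes (percent called 0.599). The log2 fold was 1.101 (SE 0.22, adjusted p = 0.0581) for Dph5, 0.88 (SE 0.20, adjusted p = 0.0951) for Plac8 and 1.41 (SE 0.37, adjusted p = 0.179) for Cd9. It was 0.82 (SE 0.27, adjusted p = 0.292) for Ptpn22 and 1.15 (SE 0.40, adjusted p = 0.325) for Cd36. Unadjusted, all 5 had an edgeR p under 0.05, and DESeq2 called 0 of the 5. Dph5 and Plac8 passed in 6 alternatives each, for example with narrower IgM classes (edgeR adjusted p = 0.00162 and 4.41e-16), and did not in B-like droplets alone (0.101 and 0.273). Of the 3 genes under the minimum, Serpine2 had 33 UMIs in the upper tertile and 4 in the lower, 98.9 and 64.5 CPM against 8.91 and 11.5, a ratio of 6.89 (95% counting interval 2.45 to 26.8). Nebl had 90.6 and 70.6 CPM against 44.6 and 30.6. Cd1d1 was higher in Main2 (61.4 against 34.5 CPM) and lower in Main1 (49.4 against 53.5).

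Other lists moved between these tertiles. Ighd, the IgD heavy chain gene, was lower in the upper tertile (172 against 619 CPM, log2 fold -1.81, SE 0.17, edgeR adjusted p = 0.00106), as was the proton channel gene Hvcn1 (log2 fold -1.82, edgeR adjusted p = 0.0135). These were the called genes among 6 tested follicular genes, and 0 of 9 tested marginal zone genes passed, with a median log2 fold of 0.52 against 0.01 over all genes tested. All 8 cycling genes were higher in the upper tertile, with a summed level of 667 to 964 CPM against 321 to 502, and their part in the result was not tested.

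Within the follicular gate the IgM tertiles gave Plac8 levels of 339 and 368 CPM in the upper and 333 and 289 in the lower tertile, and Dph5 levels of 40.0 and 44.2 against 20.4 and 25.8. Both genes were higher in both libraries, and so were 28% of the genes tested. Neither passed in edgeR, where 38 of 4597 genes did (percent called 0.827). Dph5 had a log2 fold of 0.84 (SE 0.36, adjusted p = 0.480) and Plac8 one of 0.16 (SE 0.12, adjusted p = 0.869). Unadjusted, 1 of the 2 (Dph5) had an edgeR p under 0.05, and DESeq2 called neither. The other 6 genes had too few UMIs for the test, with levels no higher than 25.02 CPM in the upper tertile in either library. The difference in the IgM effect between the gates, tested after the data had been seen, passed for 0 of 7 genes in edgeR, and for 11 of 5477 genes overall (percent called 0.201). Plac8 came nearest, at a log2 difference of 0.69 (SE 0.22, edgeR adjusted p = 0.434), and 1 of the 7 had an unadjusted p under 0.05. No other tool was run on it.

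By CD21/35, which had helped to choose the genes, Plac8 rose within the follicular gate. It had 432 and 397 CPM in the upper tertile against 303 and 275 in the lower, with no overlap. The log2 fold was 0.55 (SE 0.14, edgeR adjusted p = 0.0139), the only call among 2 tested genes of the 8, where 28 of 4546 genes passed (percent called 0.616). Dph5 had 34.7 and 34.5 CPM against 20.2 and 35.9 (log2 fold 0.33, SE 0.36, edgeR adjusted p = 0.922). Among the 8 tested marginal zone genes, Cr2 (log2 fold 0.72, edgeR adjusted p = 1.34e-04) and the Notch target Dtx1 (1.006, edgeR adjusted p = 0.0215) rose too, with a list median of 0.15 against 0.00 over all genes tested. Of the follicular list Cxcr4, a chemokine receptor gene, rose (0.92, edgeR adjusted p = 0.0184). The Plac8 call was lost in edgeR without the library block (adjusted p = 0.997) and in DESeq2 (adjusted p = 1), and so was every other, with 0 genes called and 191 and 3 at an unadjusted p under 0.05. Depth moved with the antibody, at medians of 1805 and 1407 UMIs, and its part was not tested beyond the window of 1000 to 4000 UMIs, in which the call held. Erythroid markers summed to 5066 CPM in the upper tertile of Main2 against 351 in the lower, and to 331 and 422 in Main1. Neutrophil markers summed to 2507 against 345 CPM in Main1 and plasma cell markers to 2750 against 707 in Main2, and in B-like droplets alone the call held (log2 fold 0.62, edgeR adjusted p = 0.0015). By RNA, 46 droplets of the follicular gate (2.5%) were marginal zone B-like. That class had Plac8 at 1607 CPM against 436 in other B-like droplets. The B-like alternative kept these droplets, and their part was not tested.

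**Figure D3:**
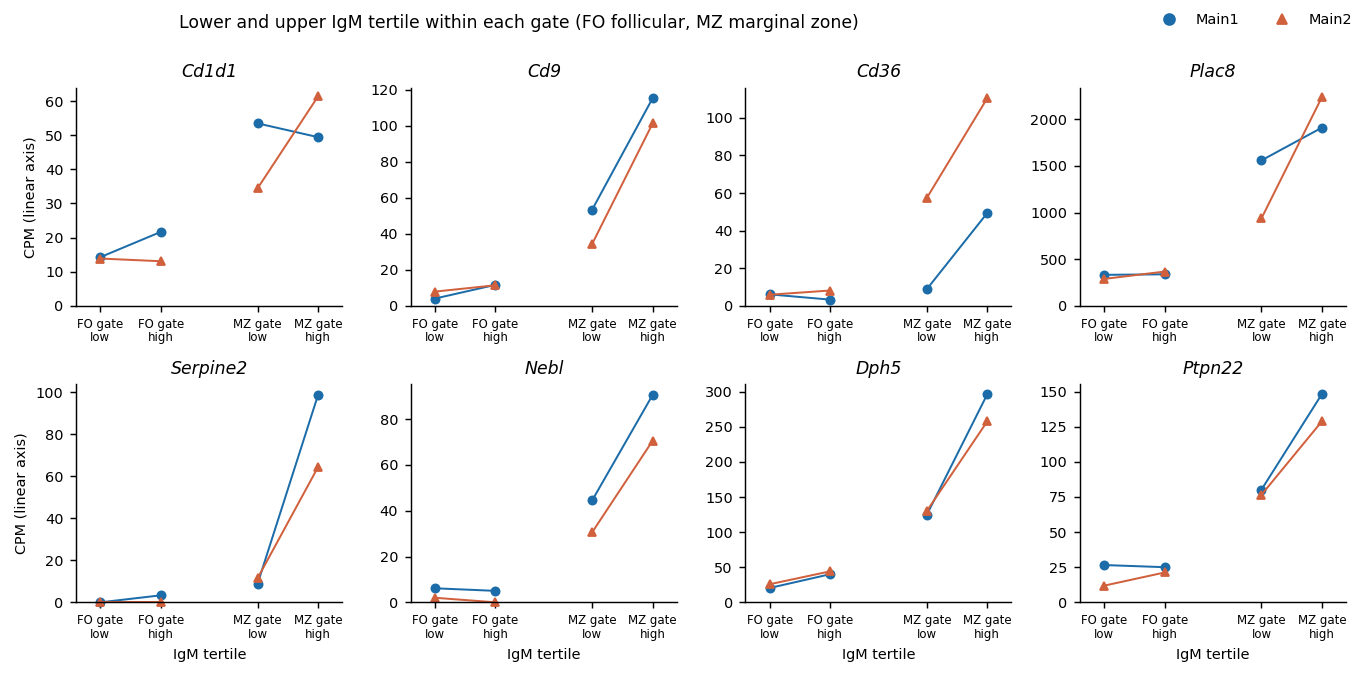
Level of each gene in CPM (linear axes from 0) in the lower and upper IgM tertile of the follicular gate (FO) and of the marginal zone gate (MZ). Circles joined by blue lines are Main1 and triangles joined by orange lines Main2. In the marginal zone gate all lines but that of Cd1d1 in Main1 go up, and Serpine2 goes from 8.91 and 11.5 to 98.9 and 64.5 CPM.

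The quadrants that neither gate takes separated the genes. Droplets high in both CD21/35 and IgD (890) were compared with droplets low in both (2252). Dph5 was higher in the former, at 56.1 and 55.7 CPM against 40.9 and 36.0 (log2 fold 0.53, SE 0.16, edgeR adjusted p = 0.0316). Plac8 was lower, at 746 and 664 CPM against 1001 and 835 (log2 fold -0.39, SE 0.06, edgeR adjusted p = 9.45e-05). Cd9 was lower as well, at 9.80 and 13.6 CPM against 19.9 and 46.2 (log2 fold -1.55, SE 0.26, edgeR adjusted p = 2.35e-04). So 3 of the 7 tested genes passed, 1 higher and 2 lower, where 839 of 7833 genes did (percent called 10.7, with 5.25 higher and 5.46 lower). Without the library block none of these 3 calls held (edgeR adjusted p from 0.0504 for Plac8 to 0.121 for Dph5). Without the erythroid-like droplet of 40 Cd9 UMIs, which lay in the low-low quadrant, the Cd9 level there in Main2 was 29.3 CPM and the call held (log2 fold -1.09, edgeR adjusted p = 0.0100).

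The other 4 tested genes did not pass in edgeR. Ptpn22 had 48.1 and 36.9 CPM against 67.3 and 47.5 (log2 fold -0.44, adjusted p = 0.0772) and Serpine2 8.02 and 4.53 against 10.96 and 11.02 (-0.87, adjusted p = 0.200). Cd1d1 stood at 27.6 and 26.5 CPM against 18.9 and 20.8 (0.42, adjusted p = 0.294) and Cd36 at 17.8 and 16.8 against 11.5 and 12.3 (0.52, adjusted p = 0.323). Nebl, with 29 UMIs over both quadrants, was not tested. Of the 12 tested marginal zone genes 5 were higher and 3 lower, among them Cr2 (log2 fold 1.37), Hes1 (1.36) and Dtx1 (1.06) on the higher side and Atp1b1 (-2.21) on the lower. Of 11 tested B-1 genes 9 were lower, such as Zbtb32 (-2.99) and Bhlhe41 (-2.83), and the other 2 did not pass. The list medians were 0.20 for the marginal zone and -1.26 for the B-1 list, against 0.00 over all genes tested.

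The low-low quadrant also held other cells. All 10 plasma cell markers were higher in it, with a summed level of 6720 to 7918 CPM against 440 to 479, and the 2 measured of 7 platelet markers reached 36.45 CPM there in Main2 against 0.5 in Main1. Monocyte markers summed to 755 to 968 CPM against 137 to 379, and erythroid markers to 1919 to 2499 against 294 to 349. Of these markers 1 of plasma cells and 1 erythroid were at 0 in the high-high quadrant, and their part in the result was not tested beyond the next comparison. In B-like droplets alone, an alternative added after seeing the data, Plac8 stayed lower (log2 fold -0.29, edgeR adjusted p = 1.97e-05), while Cd9 (-0.93, edgeR adjusted p = 0.0550) and Dph5 (0.43, edgeR adjusted p = 0.0982) no longer passed. Dph5 also turned, to -0.03 (edgeR adjusted p = 0.957), when antibodies were scaled within each droplet. The high-high droplets had a median depth of 2689 UMIs against 1535. By RNA cluster, 240 low-low droplets (10.66%) were B-1-like and 40 (1.78%) plasmacytoid DC-like, against 11 and 1 high-high droplets. Pooled over libraries, Plac8 stood at 2061 CPM in B-1-like, 4037 in plasmacytoid DC-like and 436 in other B-like droplets. The B-like alternative left out the plasmacytoid DC-like droplets but kept the B-1-like ones, whose part in the Plac8 difference was not tested. It also kept marginal zone B-like droplets, which numbered 181 (20.34%) in the high-high and 96 (4.26%) in the low-low quadrant. Pooled over libraries, Dph5 stood at 199 CPM in that class against 37.2 in other B-like droplets. The part of that class in the Dph5 difference was not tested.

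By antibody, B-1 cells were sought in the low-low quadrant as 314 droplets high in CD5 and IgM, set against 751 low in CD5. Plac8 was higher, at 1589 and 1123 CPM against 586 and 471, with no overlap (log2 fold 1.54, SE 0.13, edgeR adjusted p = 0.0397). It was the only gene of 4 tested to pass, where 6 of 4261 genes did (percent called 0.141). Ptpn22 had 127 and 84.6 CPM against 49.2 and 32.8 (log2 fold 1.55, SE 0.20, edgeR adjusted p = 0.0869). Cd9 had 44.9 and 133 CPM against 15.3 and 17.2 (2.67, SE 0.40, edgeR adjusted p = 0.104). The erythroid-like droplet named above held 40 of the 63 Cd9 UMIs of Main2, and without it that level was 48.8 CPM and the log2 fold 1.72 (edgeR adjusted p = 0.0552), while Ptpn22 then passed (1.55, edgeR adjusted p = 0.0111). With antibodies scaled within each droplet the Cd9 fold was 0.41 (edgeR adjusted p = 0.754). Dph5, at 44.9 and 40.2 CPM against 44.2 and 31.2, had a log2 fold of 0.38 (SE 0.30, edgeR adjusted p = 0.693).

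All 4 tested genes were higher in both libraries, as were 13% of the genes tested, and of the untested ones Cd36 (26.4 and 19.0 CPM against 1.70 and 6.24), Serpine2 (13.2 and 16.9 against 6.79 and 0) and Nebl (7.92 and 6.35 against 0 and 3.12) were too. The B-1 list summed to 1813 CPM against 1168, with 11 of 14 genes higher and a median log2 fold of 0.91 against -0.01 over all genes, and it held none of the 6 called genes. The 10 plasma cell markers were all higher in the CD5-high droplets (12083 to 28437 CPM against 1231 to 3627), and the 2 measured platelet markers reached 157 CPM there in Main2 against 2.64 in Main1. In B-like droplets alone Plac8 kept its call (log2 fold 1.78, edgeR adjusted p = 8.89e-62) and Ptpn22 gained one (1.45, edgeR adjusted p = 8.64e-06), while Cd9 fell under the UMI minimum.

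The RNA clusters set the innate-like B populations side by side. Plac8 was higher in B-1-like (1879 and 2270 CPM) than in marginal zone B-like droplets (1685 and 1556) and lowest in other B-like droplets (444 and 430). Ptpn22 followed, at 174 and 202 CPM in B-1-like, 105 and 99.8 in marginal zone B-like and 29.3 and 23.1 in other B-like. For both genes no values overlapped between the 3 B classes, and how many of all genes lacked overlap was not counted.

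Dph5, Cd36, Nebl and Cd1d1 had the other order. Dph5 had 187 and 207 CPM in marginal zone B-like droplets, against 44.7 and 35.1 in B-1-like and 34.7 and 39.3 in other B-like, so that only the marginal zone class stood apart. Cd36 had 39.6 and 58.8 CPM, against 2.35 and 13.5 in B-1-like and 10.49 and 12.0 in other B-like. Nebl had 45.9 and 35.7 CPM, then 11.8 and 16.2 and then 1.61 and 2.62. Cd1d1, the antigen-presenting molecule, had 64.9 and 53.6 CPM, then 25.9 and 26.96 and then 17.5 and 20.5. Cd9 did not separate the innate-like classes beyond their spread, at 63.4 and 58.8 CPM in marginal zone B-like and 47.1 and 59.3 in B-1-like, and stood at 6.45 and 10.3 in other B-like. Serpine2 had 53.9 and 39.9 CPM in marginal zone B-like and 18.8 and 51.2 in B-1-like, overlapping, against 2.69 and 1.31 in other B-like droplets. These classes were drawn from the RNA of the same droplets, so the levels are a description.

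**Figure D4:**
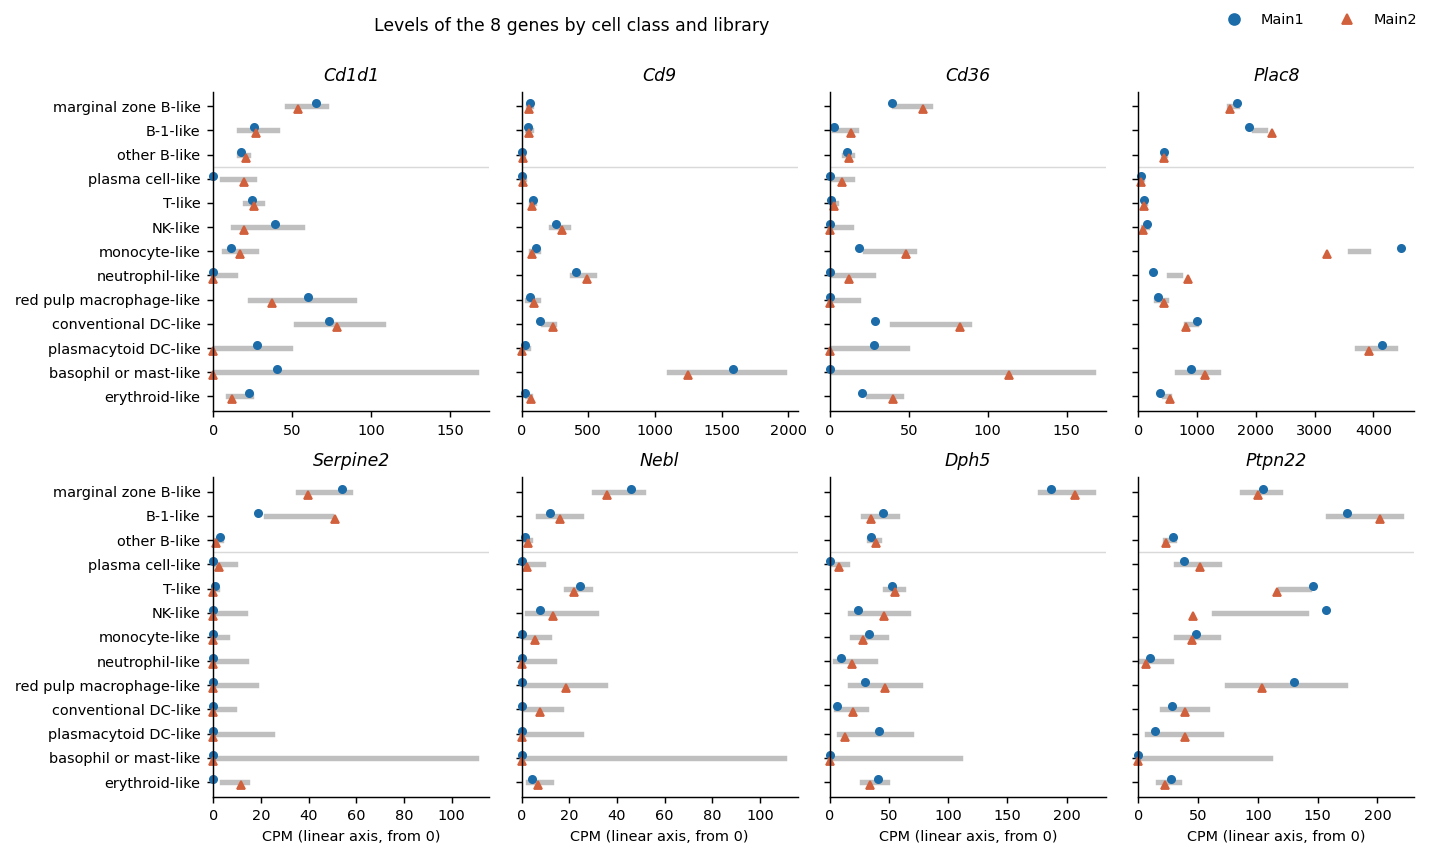
Level of each gene in CPM (linear axes from 0, a different range per gene) in 13 RNA cluster classes. Circles are Main1, triangles Main2 and grey bars the exact 95% Poisson interval of the pooled level, and the thin line sets the 3 B classes above the others. Serpine2 is at 0 in 7 of the non-B classes, whereas Plac8 peaks in plasmacytoid DC-like and then monocyte-like droplets and Cd9 in basophil or mast-like droplets. For Serpine2 the floor of 3 counts allows from 4.81 CPM in monocyte-like to 89.7 in basophil or mast-like droplets. The latter floor lies above the pooled 45.5 CPM of marginal zone B-like droplets.

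Across the spleen, Serpine2 had few UMIs in T and myeloid cells. It had 9.80 and 11.1 CPM in the B gate (121 UMIs) against 0 and 0.89 in the T gate (1 UMI of 1995344), with a log2 fold of 4.36 (SE 0.82, edgeR adjusted p = 2.8e-05), a call that DESeq2 did not make (adjusted p = 0.0561). The myeloid gate (droplets positive for CD11b, F4/80, Ly6G or CD11c) held 0 Serpine2 UMIs in 1356747, so that the B gate was at least 4.76-fold higher against a floor of 3 counts over the gate. Erythroid-like droplets held 10 Serpine2 UMIs, all in Main2 (11.8 CPM), of which 60% were in 1 droplet. The serpin genes did not share this: of 5 other tested serpins 2 were higher and 3 lower in the B than in the T gate, among them Serpinb1a (353 against 22.6 CPM) and Serpinb9 (7.998 against 18.0), with a list median of -0.84 against 0.01 over all genes. Against the myeloid gate 1 was higher and 3 lower (median -2.18 against 0.05).

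Plac8 and Cd36 were higher in B than in T cells but not than in myeloid cells. Plac8 had 781 and 770 CPM in the B gate against 88.4 and 130 in the T gate (log2 fold 2.90, SE 0.13, edgeR adjusted p = 1.38e-23) and 1970 and 1625 in the myeloid gate (log2 fold -1.30, SE 0.08, edgeR adjusted p = 4.4e-19). By cluster its highest levels were in plasmacytoid DC-like (4149 and 3931 CPM) and monocyte-like droplets (4477 and 3209), which overlapped. Cd36 had 14.1 and 22.0 CPM in the B gate against 0 and 3.56 in the T gate (log2 fold 3.27, SE 0.53, edgeR adjusted p = 1.58e-06). The myeloid gate had 13.5 and 38.1 CPM of Cd36 (log2 fold -0.63, SE 0.29, edgeR adjusted p = 0.0864), and against it B droplets outside the marginal zone gate were lower (-1.24, edgeR adjusted p = 3.1e-04), as were B-like droplets (-0.83, edgeR adjusted p = 0.0171). Among clusters, Cd36 divided the conventional DC-like droplets: 1 cluster of 35 had 77.8 and 160.6 CPM, and the other, of 90, had 0 UMIs. NK-like and red pulp macrophage-like droplets had 0 Cd36 UMIs, which by the floor of 3 counts allows up to 10.7 and 14.5 CPM.

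Cd9 was higher in other lineages than in B cells. It had 18.6 and 31.4 CPM in the B gate against 111 and 85.4 in the T gate (log2 fold -1.86, SE 0.17, edgeR adjusted p = 7.23e-13) and 234 and 251 in the myeloid gate (-3.36, SE 0.15, edgeR adjusted p = 2.09e-24). Basophil or mast-like droplets, only 17, had 1582 and 1249 CPM, neutrophil-like 406 and 487 and NK-like 259 and 302. Marginal zone B-like droplets, at 63.4 and 58.8, stood below the T-like ones (85.2 and 76.3). Of the 11 other tested tetraspanin genes 3 were higher and 3 lower in the B than in the T gate, such as Cd81 (log2 fold 2.61) and Cd37 (1.91) on the higher side and Tspan14 (-0.93) on the lower (median 0.13). Against the myeloid gate 4 were higher, again with Cd37 (2.37), and 6 lower, led by Cd63 (-5.25), with a median of -0.55.

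Ptpn22 and Nebl were likewise lower in the B gate than in the T gate. Ptpn22 had 52.0 and 45.5 CPM in the B gate against 137 and 106 in the T gate (log2 fold -1.24, SE 0.12, edgeR adjusted p = 2.79e-12). The myeloid gate had 65.6 and 32.8 CPM of it (-0.06, SE 0.21, edgeR adjusted p = 0.856). Its B-1-like level of 174 and 202 CPM lay above the T-like level of 146 and 116, and its marginal zone B-like level below it. Of 15 other tested genes of antigen receptor kinases and phosphatases 8 were higher and 4 lower in the B than in the T gate, among them the kinase genes Btk (4.58), Blk (4.58), Syk (4.16) and Lyn (3.54), with a median of 0.56. Nebl had 7.65 and 9.22 CPM in the B gate against 21.8 and 18.7 in the T gate (-1.17, SE 0.32, edgeR adjusted p = 0.0035), and outside the marginal zone gate the difference was -2.34 (edgeR adjusted p = 1.01e-06). In DESeq2 the Nebl call was lost (adjusted p = 0.341). Against the myeloid gate, with 4 UMIs, it had a log2 fold of 1.43 (SE 0.65, edgeR adjusted p = 0.0808). By cluster, marginal zone B-like droplets had 45.9 and 35.7 CPM of Nebl, above the 24.6 and 22.1 of T-like droplets. A T-like cluster of 479 droplets, taken alone, had 37.5 and 46.5 CPM, which overlapped the marginal zone B-like values. Of 7 other tested genes of the nebulin and actin-binding list 1 was higher and 5 were lower in the B than in the T gate, such as Actn1 (-3.71), Zyx (-1.71) and Lasp1 (-1.18), with a median of -1.17.

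Dph5 and Cd1d1 did not differ beyond the test between B and T cells. Dph5 had 52.5 and 62.8 CPM in the B gate and 51.7 and 56.9 in the T gate (log2 fold 0.16, SE 0.14, edgeR adjusted p = 0.455, ratio 1.07 with a 95% counting interval of 0.870 to 1.32). It was higher in the B than in the myeloid gate, at 18.5 and 14.4 CPM in the latter (1.74, SE 0.27, edgeR adjusted p = 6.92e-07). Of 6 other tested diphthamide genes, which include elongation factor gene Eef2 itself, 3 were also higher against the myeloid gate: Dph6 (1.59), Eef2 (0.59) and Dph3 (0.54), with a median of 0.77. None of these 6 passed against the T gate in edgeR (median 0.05). Cd1d1 had 23.9 and 25.5 CPM in the B gate, 23.0 and 23.1 in the T gate (0.17, SE 0.24, edgeR adjusted p = 0.662) and 30.3 and 35.4 in the myeloid gate (-0.51, SE 0.26, edgeR adjusted p = 0.115). Outside the marginal zone gate the B level was lower than the myeloid one (-0.76, edgeR adjusted p = 0.0161). Conventional DC-like droplets had 73.4 and 78.7 CPM of Cd1d1, above the marginal zone B-like values, while neutrophil-like droplets had 0 UMIs, which allows up to 11.2 CPM. Of 10 other tested genes of lipid antigen presentation 1 was higher in the B than in the myeloid gate, Mttp (3.22), and 6 were lower, such as Ap3s1 (-2.68), Psap (-2.48) and Npc2 (-2.01), with a median of -0.67. Of 9 other tested genes of fatty acid uptake 8 were lower there, led by Lpl (-4.60), Cd68 (-4.26) and Scarb1 (-3.83), and 0 were higher in edgeR, with a median of -1.60.

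In count, 6 of the 8 genes passed between the B and T gates, 3 in each direction, where 2787 of 9189 genes did (percent called 30.3, with 15.1 higher and 15.3 lower). Between the B and myeloid gates 4 passed, 2 in each direction and among them Serpine2, which had its UMIs in the B gate alone, where 3383 of 9230 did (percent called 36.7, with 16.2 higher and 20.5 lower). With the marginal zone gate left out of the B gate, all 10 calls held in edgeR. NK-like droplets made up 19.4% of the myeloid gate (96 droplets), with NK markers at 6021 CPM against 330 in the B gate, and had Cd9 at 259 and 302 CPM. Without them the 4 calls held, and Cd36 (-0.85, edgeR adjusted p = 0.016) and Nebl (2.19, edgeR adjusted p = 0.0301) passed too. The myeloid gate held B-lineage markers at 318 to 360 CPM in sum and the T gate at 273 to 288, against 8805 to 8818 in the B gate, and 0 of the 8 markers was at 0 in any of them.

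**Figure D5:**
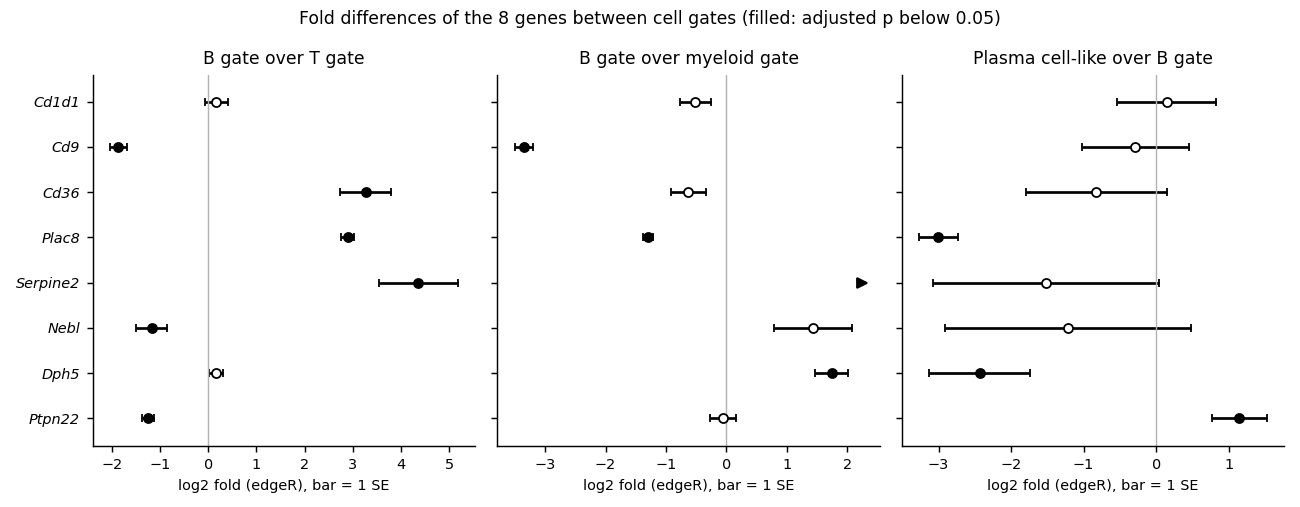
Log2 fold of each gene between cell gates from edgeR, with 1 SE, for the B over the T gate, the B over the myeloid gate and plasma cell-like droplets over the B gate. Filled points passed at an adjusted p under 0.05, open points did not, and the arrowhead for Serpine2 against the myeloid gate marks the log2 of the lower bound of 4.76-fold. Serpine2, Cd36 and Plac8 lie to the right in the first panel and Cd9, Nebl and Ptpn22 to the left.

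Plasma cell-like droplets, a cluster of 79 with all 10 plasma cell markers at the required level, had less Plac8 and Dph5 than the B gate. Plac8 had 53.0 and 36.9 CPM against 802 and 796 in the B gate (log2 fold -3.00, SE 0.27, edgeR adjusted p = 1.03e-27). Dph5 had 0 and 7.39 CPM, 3 UMIs in all, against 54.1 and 64.7 (-2.44, SE 0.70, edgeR adjusted p = 0.00545). Ptpn22 had 38.5 and 51.7 CPM against 52.3 and 46.2, a ratio of 0.966 (95% counting interval 0.641 to 1.403), and its direction depended on the scaling.

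With TMM factors Ptpn22 was called higher (1.14, SE 0.38, edgeR adjusted p = 0.0232), and without them it was not (-0.07, edgeR adjusted p = 0.879). The median log2 fold of all genes moved from -0.25 to -1.46 between these scalings. Cd1d1, Cd9, Cd36, Serpine2 and Nebl had 1 to 8 UMIs in the plasma cell-like droplets and did not pass in edgeR (adjusted p from 0.653 to 0.948), although Cd36 did without TMM (-2.06, edgeR adjusted p = 0.0435). In total 3 of 8 tested genes passed, 2 lower and 1 higher, where 1242 of 8809 genes did (percent called 14.1, with 6.94 higher and 7.16 lower). In CPM 7 of the 8 stood lower in both libraries, as did 82.6% of the genes tested. Immunoglobulin genes took 61.2% of the UMIs of these droplets, against 2.23% in other B-like droplets. With those UMIs left out, Plac8 (109 against 446 CPM) and Dph5 (12.6 against 38.1) stood lower than in other B-like droplets, whereas Ptpn22 (122 against 26.5), Cd1d1 (33.6 against 19.6) and Cd9 (25.2 against 8.75) stood higher. The call of Dph5 was lost in DESeq2 (adjusted p = 0.130) and in droplets of 1000 to 4000 UMIs (-0.54, edgeR adjusted p = 0.878), a window that the deep plasma cell-like droplets, at a median of 7198 UMIs, mostly exceeded.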

How the data were processed

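Spleen cells were measured in 2 libraries, Main1 and Main2. The authors deposited unnormalized whole-number counts of UMIs per gene and droplet and of antibody tags per antibody and droplet, in tables whose column prefixes m1 and m2 were read as Main1 and Main2. Cell Ranger 3.0.2, bcl2fastq and the mm10 build appear in the submitters' processing notes; no source used here gives how antibody tags were counted. Of 11713 Ensembl identifiers 11682 matched a symbol in a table of gene names, and loci are from GENCODE vM21. The 8 genes, the gene lists and the markers were chosen with earlier results of these data known. Named genes were all 8, the 3 genes most like each, and up to 4 called genes of each list with the largest change.

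Antibody counts were log-transformed, centred per antibody over all droplets, and gated by a Gaussian mixture of 2 components (scikit-learn 1.9.0, posterior above 0.5). Tertiles and classes of equal droplet number were drawn per library. The cuts that define the marginal zone gate, the follicular gate and the quadrants were set over the B gate with libraries pooled. These gates were therefore not balanced between libraries. The marginal zone gate took 6.19% of the B gate in Main1 and 10.78% in Main2. Leiden clusters (scanpy 1.11.5, igraph 0.11.9, 1920 variable genes, 30 components, 15 neighbours, resolution 1) gave 22 clusters, made without the 8 genes and without immunoglobulin and T-cell receptor genes. A class was named from its markers. Doublets were not removed: 293 droplets were positive for CD3 and a B-lineage antigen, and stayed out of the B and T gates.

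UMIs were summed per library and population and tested with edgeR 4.0.16 (R 4.3.3, quasi-likelihood, TMM) for genes with 50 or more UMIs, blocked on library, since each library supplies both populations compared. This left 1 residual degree of freedom. P-values thus lean on the variance shared across genes, with prior degrees of freedom from 4.5 to infinite. Simulated counts gave every gene the same dispersion, unlike real genes, so recovery in the data may be lower. For IgM within the marginal zone gate (1837 genes), 94 of 100 genes changed by a log2 fold of 2 were called. Of 100 changed by 1, 41 were called there. Other comparisons recovered less, with 63 of 100 at a log2 fold of 2 for plasma cell-like droplets. The CD5 comparison recovered 29 of 100 at 1. Alternatives were DESeq2 1.42.0, other scalings, filters, antibody classes and depths, and each library alone. Intervals are 95% and exact (Poisson, Clopper-Pearson or conditional binomial). Overlap of library values was described for single genes and not counted over all genes.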

Additional observations from a re-analysis of the deposited data

How the results depend on the processing

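Of 511 values of single genes under alternatives, 437 stayed on their side of the threshold or within the spread between libraries, 35 newly passed, 16 no longer passed, 21 moved by more than that spread and 2 that had passed changed sign. A further 18 that passed neither before nor after also changed sign, such as Cd1d1 (-0.117) and Cd36 (-0.064) between the quadrants with antibodies scaled within droplets. The 2 were Dph5 between the quadrants with antibodies scaled within droplets (-0.034) and Ptpn22 in plasma cell-like droplets without TMM (-0.067). The 437 include 43 values with Main1 left out and 33 with Main2 left out. These were measured against the spread of the same 2 single-library values, which nearly fixes the outcome. They therefore say little on how stable the results are. Counts of called genes changed more. For IgM within the follicular gate 38 became 0 without the library block (replicate block) and in DESeq2 (197 and 4 genes at an unadjusted p under 0.05), 0 with within-droplet antibody scaling (315), 18 with a minimum of 10 UMIs, 13 with narrower classes and 19 in B-like droplets. For CD21/35 within it 28 became 0 without the block and in DESeq2 (191 and 3 unadjusted) and 59 with within-droplet scaling. For IgM within the marginal zone gate 11 became 3 in DESeq2, 25 without TMM, 23 without immunoglobulin genes, 50 with the 10 UMI minimum, 122 with within-droplet scaling, 34 in the depth window, 49 with narrower classes and 3 in B-like droplets. Between the quadrants 839 became 297 without the block, 79 in DESeq2, 524 in the depth window and 554 in B-like droplets. For CD5-high droplets 6 became 33 without the block, 16 in DESeq2, 245 without TMM, 1 without immunoglobulin genes, 232 with the 10 UMI minimum, 174 with within-droplet scaling, 51 in the depth window, 183 with narrower classes, 136 in B-like droplets and 68 without the droplet with most Cd9 UMIs. B against T went from 2787 to 1103, and B against myeloid from 3383 to 1524, in DESeq2. For plasma cell-like droplets 1242 became 594 in DESeq2, 4093 without TMM and 246 in the depth window. Without the block Cd9 (adjusted p = 0.0675), Plac8 (0.0504) and Dph5 (0.121) no longer passed in edgeR between the quadrants. DESeq2 gave no adjusted p for 6985 of 7833 genes there. In DESeq2 Serpine2 between the B and T gates (adjusted p = 0.0561) and Ptpn22 in plasma cell-like droplets (0.222) were not called. B-like droplets, the Cd9 droplet and the myeloid gate without NK-like droplets were chosen as alternatives after seeing the data. The cause of these changes was not tested. Depth limits Serpine2, Nebl and Cd36, with 127, 193 and 286 UMIs in all. Each library alone gives a value with no test.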

Other observations

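The genes most like each of the 8 across 17 populations (34 points of population and library, log2 of CPM + 10, 7003 genes with 200 or more UMIs) were different for each. Nebl was followed most closely by Ttc28 (Pearson r 0.874), H2-T22 (0.764) and Grap2 (0.763), an adaptor gene of T cells. Ptpn22 was followed by Asxl2 (0.853), Foxo1 (0.843), a transcription factor gene of lymphocytes, and Nktr (0.828). Dph5 had Coro7 (0.839), Strn4 (0.832) and 2510002D24Rik (0.820). Cd9 had Gng5 (0.838), Pxn (0.831), which encodes paxillin, and Arrb2 (0.830). Plac8 had Napsa (0.808), Lyn (0.806), a kinase gene of B and myeloid cells, and BC028528 (0.801). Serpine2 had Chst3 (0.767), Myo1e (0.764) and the fatty acid receptor gene Ffar1 (0.747). Cd1d1 had Bcl2a1b (0.771), Ttc9c (0.760) and Tex9 (0.751). Cd36 had the weakest likeness, at 0.671 for Gtf2e2, 0.642 for Gtf2h5 and 0.637 for Drg1. Points share libraries and some populations share droplets, and the correlations are a description with no test.

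Read by class, the 8 genes did not make 1 pattern. Plac8 and Ptpn22 were highest among B classes in B-1-like droplets, while Dph5, Cd36, Nebl and Cd1d1 were highest in marginal zone B-like droplets. In erythroid-like droplets 1 droplet held 59.7% of the 67 Cd9 UMIs, so the Cd9 level of that class, 22.7 CPM in Main1 and 67.2 in Main2, rests largely on it. In NK-like droplets Ptpn22 had 157 CPM in Main1 and 45.9 in Main2.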
